A study of Mus musculus with 2 samples.

Results

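Tip-like blood endothelial cells are described here in single-cell RNA-seq libraries of cells sorted from mouse melanomas. They were chosen by the measured levels of 4 genes, as the 170 barcodes, of 340 non-cycling blood endothelial barcodes and of 3334 barcodes that passed the quality filter, in which Esm1, Apln, Angpt2 and Kcne3 together made up more than 0.220% of all unique molecular identifiers (UMIs, each standing for 1 captured RNA molecule). A barcode was called blood endothelial when the summed UMIs of Flt1, Plvap, Emcn, Gpihbp1 and Cd34 reached 5 and were at least 2 times the sum of each of the panels for lymphatic endothelium, melanoma, macrophages and stroma. It was called not cycling when fewer than 3 of the mitosis and replication genes Mki67, Top2a, Cenpf, Birc5, Cdk1 and Ube2c had a UMI. The cut of 0.220% was the median of the 340 barcodes over both libraries, so the remaining 170 barcodes, called non-tip below, lie under it by construction. Tip-like and non-tip barcodes are therefore ends of 1 measured range and were not shown to be separate cell types.

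Tip cells lead a growing blood vessel sprout: they extend filopodia toward vascular endothelial growth factor (VEGF), while the stalk cells behind them form the lumen and divide. VEGF signalling induces the Notch ligand Dll4 in tip cells, and Notch activity in their neighbours restrains the tip program. In tumours the program is known for Esm1, a secreted proteoglycan, for Apln, the ligand of the apelin receptor, for Angpt2, a context-dependent antagonist of the Tie2 receptor, and for Kcne3, a potassium channel subunit.

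The tumours were B16F10 mouse melanoma cells that carry ovalbumin and the lymphatic growth factor VEGF-C, implanted under the skin surface (intradermally) at 500K cells and collected on day 15. One group of hosts was Ifngr1iProx1 (Cre plus), a name that ties the interferon-gamma receptor gene Ifngr1 to the Prox1 gene. The other was Ifngr1WT (Cre minus). In each group 3 tumours were pooled and their DAPI-negative, CD31-positive, CD45-negative cells were sorted into 1 library, so there are 2 libraries, 1 per genotype, and no replicate of either. Prox1 is the transcription factor of lymphatic identity and is not expressed by mature blood endothelium. Host strain, sex, age and any treatment that starts the Cre are not given in the sources used here. Everything measured between the genotypes is thus a difference between 2 libraries, in which genotype, tumour pool, sort and library cannot be told apart, and no test of genotype was made.

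The 2 libraries held 2491 Cre plus and 2502 Cre minus barcodes with 66704257 and 76967583 UMIs, of which 1782 and 1552 barcodes passed the filter of at least 500 genes and under 10% mitochondrial UMIs. Tip-like barcodes numbered 72 in the Cre plus and 98 in the Cre minus library, with 1394432 and 1148316 summed UMIs. Their median depth was 15066.5 UMIs in Cre plus, against 11304 in Cre minus, their median mitochondrial share 1.80% and 3.06%, and the share of barcodes with at least 0.1% Malat1 UMIs, a nuclear RNA, 72.2% and 58.2%. The 5 deepest barcodes held 18.8% of the Cre plus and 14.5% of the Cre minus tip-like UMIs. One barcode sequence occurred in both libraries, and it was not tip-like. The doublet caller marked 3 barcodes in each library, too few to be taken as a working call, so doublets were not removed.

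Tip-like barcodes carried the blood endothelial markers. In the Cre plus library 84.7% had a UMI of Flt1 (VEGF receptor 1), 93.1% of Plvap (the diaphragm protein of fenestrae and caveolae), 94.4% of Emcn, 98.6% of Gpihbp1 and 88.9% of Cd34, and in the Cre minus library the shares were 79.6%, 86.7%, 94.9%, 99.0% and 86.7%. Each of these genes was part of the choice of the cells. Melanoma-panel barcodes, which should lack them, were deeper (median 18123 UMIs in Cre plus, against 17813 in Cre minus). Flt1 was found in 2.10% of Cre plus and 5.60% of Cre minus melanoma-panel barcodes, but Plvap in 18.32% and 17.02%. Gpihbp1 was found in 8.21% of Cre plus and 7.17% of Cre minus ones, Emcn in 4.2% and 4.93%, and Cd34 in 2.86% and 3.47%. In lymphatic-panel barcodes Plvap was found in 75.5% of Cre plus and 58.9% of Cre minus. Gpihbp1 was found there in 53.2% of Cre plus and 33.5% of Cre minus, and Flt1 in 6.75% and 0.957%.

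The sums of other panels were held low by the choice of the cells, which required the blood endothelial sum to exceed each of them, so they are given as a description. The 5 lymphatic panel genes summed to 307 UMIs (220 CPM) in Cre plus, against 325 UMIs (283 CPM) in Cre minus tip-like cells, of which Flt4 (VEGF receptor 3, which tip cells of blood vessels can also express) made up 275 in Cre plus, against 250 in Cre minus. The lymphatic regulator Prox1 had 2 UMIs in the Cre plus and 0 in the Cre minus tip-like cells, and Lyve1 had 5 in Cre plus, against 10 in Cre minus. Ccl21a, an abundant lymphatic chemokine RNA, had 11 UMIs in Cre plus, against 46 in Cre minus tip-like cells, and the melanoma gene Dct had 27 in Cre plus, against 47 in Cre minus. Outside the panels, the lymphatic gene Pdpn, the pan-leukocyte gene Ptprc and the pericyte receptor Pdgfrb were at 0 in both, while Itga9, another gene of the lymphatic list, had 377 UMIs in Cre plus, against 408 in Cre minus. The 4 macrophage panel genes summed to 6.45 CPM in Cre plus, against 9.58 in Cre minus, and the 4 stroma panel genes to 21.5 in Cre plus, against 10.5 in Cre minus. Their part in the differences given below was not tested. Haemoglobin RNA differed as well, with 6914 UMIs in Cre plus, against 110 in Cre minus tip-like barcodes, and 1 Cre plus barcode but no Cre minus barcode exceeded 1% haemoglobin.

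The genes behind the rule were higher in tip-like cells by construction, and their values are given as a description. Levels are UMIs per 1000000 UMIs (CPM) summed over the barcodes of a class in a library, and brackets hold 95% intervals that cover counting error only, not differences between cells, animals or libraries. Esm1 (ENSMUSG00000042379, chr13:113209659-113218098, plus strand, mm10) had 3461 UMIs (2482 CPM) in tip-like and 339 UMIs (262 CPM) in non-tip cells of the Cre plus library, and 2966 UMIs (2583 CPM) in tip-like and 351 UMIs (361 CPM) in non-tip cells of the Cre minus library. In Cre plus it was found in 100% of tip-like and 48.2% of non-tip barcodes, against 2.29% of the deeper melanoma-panel barcodes, and in Cre minus in 91.8%, 62.1% and 2.46% of these classes. After each barcode was thinned to 2000 UMIs, tip-like barcodes with Esm1 made up 90.6% in Cre plus, against 85.7% in Cre minus. Esm1 was thus near-universal among tip-like cells and still present in a large part of the non-tip cells.

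Apln (ENSMUSG00000037010, chrX:48025146-48034853, minus strand) had 592 CPM in tip-like and 44.0 CPM in non-tip cells of Cre plus, and 577 CPM in tip-like and 180 CPM in non-tip cells of Cre minus. Angpt2 (ENSMUSG00000031465, chr8:18690263-18741562, minus strand) had 989 CPM in tip-like and 142 CPM in non-tip cells of Cre plus, and 765 CPM in tip-like and 121 CPM in non-tip cells of Cre minus. Kcne3 (ENSMUSG00000035165, chr7:100176502-100184869, plus strand) had 1110 CPM in tip-like and 233 CPM in non-tip cells of Cre plus, and 830 CPM in tip-like and 346 CPM in non-tip cells of Cre minus. Of the 4 genes, Apln had the non-tip level that differed most between the libraries. Angpt2 and Kcne3 were not particular to blood endothelium: 74.3% of Cre plus and 58.4% of Cre minus lymphatic-panel barcodes had an Angpt2 UMI and 64.7% of Cre plus and 40.7% of Cre minus ones a Kcne3 UMI, whereas Esm1 was found in 4.16% of Cre plus and 0.957% of Cre minus ones.

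Most tip-like barcodes carried several of the 4 genes. All 4 were found in 52 Cre plus barcodes (72.2%) and in 48 Cre minus barcodes (49.0%), and 3 in a further 23.6% of Cre plus and 30.6% of Cre minus barcodes. Among non-tip barcodes all 4 were found in 9.64% of Cre plus and 13.8% of Cre minus, and none in 25.3% of Cre plus and 13.8% of Cre minus. The Cre plus tip-like barcodes were also the deeper ones, and the part of depth in these shares was not tested.

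**Figure D1:**
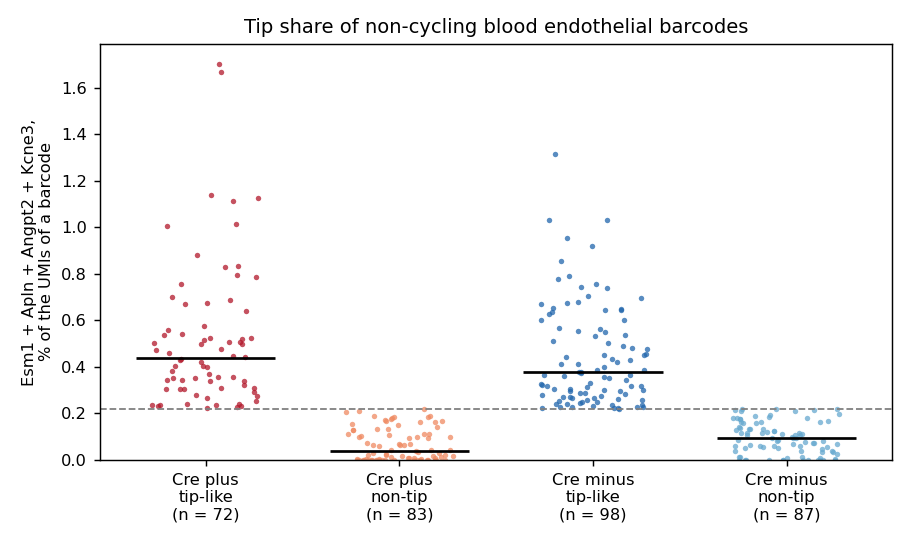
Share of Esm1, Apln, Angpt2 and Kcne3 among the UMIs of each non-cycling blood endothelial barcode (percent, linear axis), by library and class; a point is a barcode, a black line the median and the dashed line the cut at 0.220%. Shares run on across the cut in both libraries, and the tip-like medians were 0.440% in Cre plus, against 0.377% in Cre minus.

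The cut fell within a continuous range. The lowest share inside it was 0.221%, the highest outside was 0.220197%, and the 5th barcodes on either side had 0.224% and 0.217%. Within a factor of 1.25 of the cut lay 36 tip-like and 24 non-tip barcodes. Inside the tip-like class the share reached 1.70% in Cre plus, against 1.32% in Cre minus, and the median non-tip share was 0.0377% in Cre plus, against 0.0924% in Cre minus. A total of 33 non-tip barcodes had no UMI of any of the 4 genes.

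Tip-like cells made up 46.5% of the non-cycling blood endothelial barcodes in Cre plus (72 of 155, exact Clopper-Pearson 95% interval 38.4% to 54.6%) and 53.0% in Cre minus (98 of 185, 45.5% to 60.3%). The difference was -6.52 percentage points, with an interval of -16.9 to 4.11 points that covers counting error only and includes 0. Because the cut was the joint median, the pooled share is 50% by construction, and a higher share in 1 library lowers the other. Over all blood endothelial barcodes, the share of tip-like cells was 37.3% in Cre plus, against 45.4% in Cre minus, and that of cycling cells 19.7% in Cre plus, against 14.4% in Cre minus. Blood endothelial barcodes were themselves 10.8% of passing barcodes in Cre plus, against 13.9% in Cre minus, in a sort that also let through lymphatic, melanoma and other cells. Among the cycling blood endothelial barcodes, 17 of 38 from the Cre plus library, against 8 of 31 from the Cre minus library, had a share above the cut.

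Next, tip-like cells were set against non-tip cells within each library to see what else went with the 4 genes. Since the cells were split by their own RNA, this is a description with no test. Of 5908 genes with at least 50 UMIs in each library's sum over both classes, 169 (2.86%) were over 1.5-fold higher in tip-like cells in both libraries and 196 (3.32%) over 1.5-fold lower. In single libraries 10.3% were higher and 8.85% lower in Cre plus, and 8.06% higher and 10.6% lower in Cre minus. The median gene stood at 0.03 on the log2 scale in Cre plus and at -0.04 in Cre minus. Beyond the rule, the 12 named higher genes include secreted vascular factors, matricellular proteins and chemokine receptors, and the 12 named lower genes the Tie2 receptor, transporters and interferon-induced genes.

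Adm, which encodes the vasodilator peptide adrenomedullin (chr7:110627661-110629820, plus strand), had the largest ratio of the 12 named higher genes. It had 265 UMIs (190 CPM) in tip-like and 17 UMIs (13.1 CPM) in non-tip cells of Cre plus, a log2 ratio of 3.85 [3.15, 4.66]. In Cre minus it had 187 UMIs (163 CPM) in tip-like and 19 UMIs (19.5 CPM) in non-tip cells, a log2 ratio of 3.06 [2.38, 3.82]. It was carried by a minority of the cells. In Cre plus 47.2% of tip-like barcodes had a UMI, 21.1% after thinning, and 14.5% of the deeper melanoma-panel barcodes. In Cre minus the shares were 27.6%, 12.8% after thinning, and 13.7% of melanoma-panel barcodes.

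Other genes of secreted proteins were higher as well. Igfbp3, which binds insulin-like growth factors (chr11:7206086-7213923, minus strand), was higher by 1.30 [1.23, 1.38] in Cre plus and by 1.40 [1.33, 1.47] in Cre minus on the log2 scale. Its level was 3540 CPM in tip-like and 1433 in non-tip cells of Cre plus, and 5828 CPM in tip-like and 2205 CPM in non-tip cells of Cre minus. Ccn2, a matricellular protein, was higher by 2.99 in Cre plus and by 2.22 in Cre minus on the log2 scale, and Thbs1 (thrombospondin 1, another matricellular protein) by 2.77 in Cre plus and by 2.24 in Cre minus. Angptl4, a secreted inhibitor of lipoprotein lipase, was higher by 1.71 in Cre plus and by 1.92 in Cre minus. The protease genes were Prss23, higher by 1.97 in Cre plus and by 2.32 in Cre minus, and Gzmk (granzyme K), higher by 2.33 in Cre plus and by 2.25 in Cre minus.

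Gzmk is known as a lymphocyte protease. Its 211 UMIs in Cre plus tip-like cells lay in 50% of barcodes and its 174 UMIs in Cre minus tip-like cells in 31.6%, while the 9 genes of the T and NK cell list summed to 0.717 CPM in Cre plus tip-like cells and to 0 in Cre minus tip-like cells. In melanoma-panel barcodes it was found in 0% of Cre plus and 0.112% of Cre minus barcodes. The annotated Gzmk gene (chr13:113171608-113225908, minus strand) spans the whole of Esm1 on the opposite strand, a gene that chose these cells. No source used here states whether counting used strand. Whether Esm1 reads were counted as Gzmk was not tested, so the Gzmk value is uncertain.

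The chemokine receptor Cxcr4 had 209 UMIs (150 CPM) in tip-like and 55 UMIs (42.5 CPM) in non-tip cells of Cre plus, and 261 (227 CPM) in tip-like and 49 (50.3 CPM) in non-tip cells of Cre minus, log2 ratios of 1.82 [1.38, 2.27] in Cre plus, against 2.17 [1.73, 2.65] in Cre minus. The atypical receptor Ackr3, which binds the same ligand and also adrenomedullin, was higher by 1.73 in Cre plus and by 2.70 in Cre minus. Their ligand Cxcl12 went the other way, at 188 CPM in tip-like and 537 CPM in non-tip cells of Cre plus and 179 CPM in tip-like and 310 CPM in non-tip cells of Cre minus (log2 -1.52 in Cre plus, -0.80 in Cre minus). Both receptors were thus higher and the ligand lower in the tip-like sums.

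Kcnj8, a potassium channel subunit, was higher by 2.86 [2.33, 3.44] in Cre plus and by 1.95 [1.41, 2.53] in Cre minus, and its partner subunit Abcc9 by 1.75 in Cre plus and by 0.90 in Cre minus. Both are also pericyte genes. The 4 stroma panel genes, which the choice of cells held low, had 30 UMIs (21.5 CPM) in tip-like and 3 UMIs (2.32 CPM) in non-tip cells of Cre plus, and 12 UMIs (10.5 CPM) in tip-like and 8 UMIs (8.22 CPM) in non-tip cells of Cre minus, so stroma RNA was higher alongside Kcnj8 in Cre plus. Of the 12 genes of the pericyte and fibroblast list, Kcnj8 held 251 and Abcc9 258 of the 543 UMIs of Cre plus tip-like cells, and 155 and 304 of the 464 UMIs of those in Cre minus. Pdgfrb was at 0. The part of pericyte RNA in these ratios was not tested. Kcnj8 was also found in 62.6% of Cre plus and 35.9% of Cre minus lymphatic-panel barcodes. The remaining genes named by the rule were Prune2, higher by 2.21 in Cre plus and by 1.59 in Cre minus, and Maged1, higher by 1.40 in both.

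**Figure D2:**
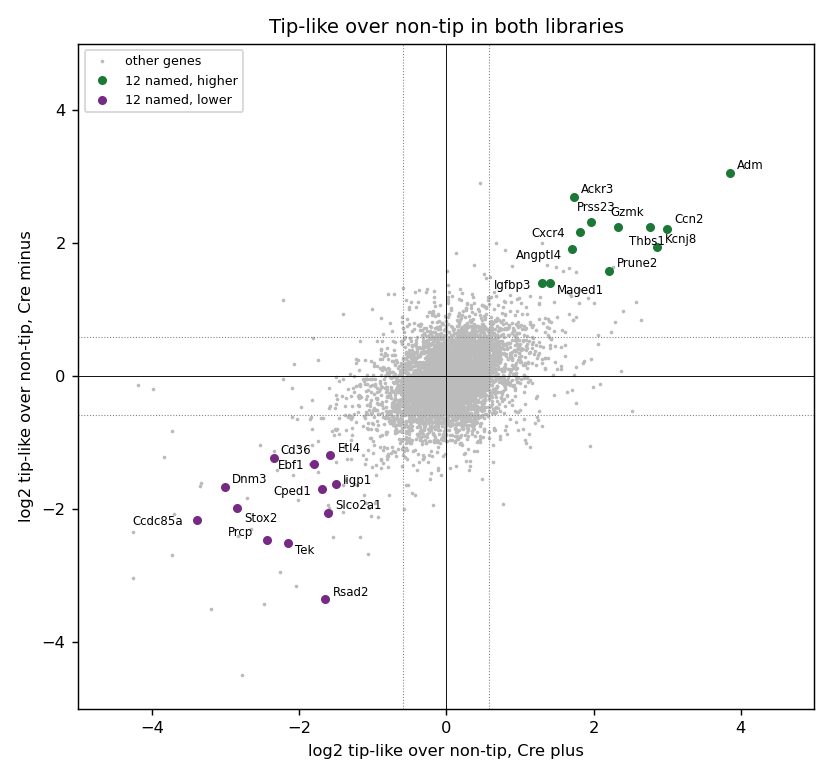
Log2 ratio of tip-like over non-tip cells in the Cre plus (x) and Cre minus (y) library for 5907 genes outside the panels that chose the cells; dotted lines mark 1.5-fold, and 3 genes fall outside the axes. The 12 named higher genes (green) lie at the upper right, led by Adm at 3.85 in Cre plus, against 3.06 in Cre minus, and the 12 named lower genes (purple) at the lower left.

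Of the 34 further tip cell genes listed, 33 had enough UMIs for this comparison, and 29 of them were higher in tip-like cells in both libraries, where 31.1% of all genes were. Over 1.5-fold higher in both libraries were 10 of the 33 (2.86% of all genes were), and over 1.5-fold lower 0 (3.32% of all genes were). The median log2 ratio of the 33 was 0.81 in Cre plus, against 0.46 in Cre minus. Dll4 had 323 CPM in tip-like and 163 CPM in non-tip cells of Cre plus and 430 CPM in tip-like and 189 CPM in non-tip cells of Cre minus, log2 ratios of 0.99 [0.75, 1.23] in Cre plus, against 1.19 [0.94, 1.44] in Cre minus. The pericyte-recruiting growth factor Pdgfb was higher by 0.89 in Cre plus and by 0.54 in Cre minus, the netrin receptor Unc5b by 0.67 in Cre plus and by 0.83 in Cre minus, and the activin subunit Inhbb by 0.98 in Cre plus and by 0.74 in Cre minus. Clec14a, an endothelial lectin on the same list, stood at -1.17 in Cre plus and at -0.14 in Cre minus. Pgf (placental growth factor) fell short of the UMI minimum, with 110 UMIs in 13 Cre plus and 34 UMIs in 9 Cre minus tip-like barcodes.

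The receptors of Angpt2 and of apelin were both lower in tip-like cells. Tek, which encodes the angiopoietin receptor Tie2 (chr4:94739289-94874976, plus strand), had 53 UMIs (38.01 CPM) in tip-like and 219 UMIs (169 CPM) in non-tip cells of Cre plus, and 47 (40.9 CPM) in tip-like and 226 (232 CPM) in non-tip cells of Cre minus. Its log2 ratio was -2.15 [-2.62, -1.72] in Cre plus, against -2.50 [-2.99, -2.05] in Cre minus. Aplnr, the apelin receptor, had 189 CPM in tip-like and 390 CPM in non-tip cells of Cre plus and 103 CPM in tip-like and 404 CPM in non-tip cells of Cre minus (log2 -1.05 in Cre plus, -1.97 in Cre minus). Both ligands, Angpt2 and Apln, are rule genes and were higher in the tip-like class by construction, so only the lower summed RNA of their receptors is an observation. VEGF receptor 2 (Kdr) was higher by 0.39 in Cre plus and by 0.29 in Cre minus, and its co-receptor Nrp1 by 0.42 in Cre plus and by 0.35 in Cre minus, both under 1.5-fold.

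Of the Notch genes, 7 of 11 were higher in both libraries (31.1% of all genes were) and 0 lower in both (32.6% of all genes were), with medians of 0.31 in Cre plus, against 0.38 in Cre minus. Dll4 was the 1 member over 1.5-fold in both. The Notch targets Hes1 and Nrarp were higher by 0.31 and 0.39 in Cre plus and by 0.91 and 0.94 in Cre minus. Arterial genes had no common direction, with medians of -0.52 in Cre plus, against 0.28 in Cre minus.

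Basement membrane genes, which encode the sheet of laminin and collagen IV under the endothelium, were higher in both libraries for 14 of 20 members (31.1% of all genes were) and lower in both for 0, with medians of 0.84 in Cre plus, against 0.37 in Cre minus. Col4a1, Col4a2, Lama4, Lamb1, Nid1, Nid2, Hspg2, Sparc and Vwa1 are also on the tip cell list, so the counts of these lists are not independent. Fn1 (fibronectin) was higher by 1.26 [1.06, 1.46] in Cre plus and by 1.11 [0.81, 1.41] in Cre minus. Its level was 516 CPM in tip-like and 216 CPM in non-tip cells of Cre plus, and 283 CPM in tip-like and 132 CPM in non-tip cells of Cre minus. Sparc, a collagen-binding matricellular protein, was higher by 0.66 in Cre plus and by 0.84 in Cre minus. Collagen IV (Col4a1) was higher by 0.38 in Cre plus and by 0.44 in Cre minus, and laminin alpha 4 (Lama4) by 1.02 in Cre plus and by 0.30 in Cre minus. Among barcodes with under 0.1% Malat1 UMIs the basement membrane medians turned to -0.16 in Cre plus, against -0.35 in Cre minus, so the higher level was not seen among Malat1-poor barcodes.

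Genes of matrix breakdown were split. Cathepsin L (Ctsl) was higher by 1.02 in Cre plus and by 1.11 in Cre minus and the urokinase receptor Plaur by 1.72 in Cre plus and by 0.85 in Cre minus, whereas the protease Adamts9 stood at -0.85 in Cre plus, against -0.72 in Cre minus, and Adam15 at -1.31 in Cre plus, against -0.61 in Cre minus. Glycolysis genes were higher in both libraries for 15 of 16 members (31.1% of all genes were), with medians of 0.41 in Cre plus, against 0.33 in Cre minus, and 2 were over 1.5-fold in both. Of 17 hypoxia response genes, 10 were higher in both and 3 over 1.5-fold, against 31.1% and 2.86% of all genes. The 3 were Adm, Ankrd37 (2.24 in Cre plus, 0.67 in Cre minus), an ankyrin repeat protein gene induced by hypoxia, and the glucose transporter gene Slc2a1, at 103 CPM in tip-like and 31.7 CPM in non-tip cells of Cre plus and at 66.2 CPM in tip-like and 28.8 CPM in non-tip cells of Cre minus (log2 1.69 in Cre plus, 1.20 in Cre minus). Promoter windows of 300 bases, from 250 before to 50 after the start, were searched for ACGTG on either strand, the core of the hypoxia response element. It was found in 11 of the 14 hypoxia genes with a RefSeq window (78.6%) and in 30.3% of genes measured in tip-like cells. Of the 29 tip cell genes outside the rule with a window, 3 had it (10.3%). Kcne3 had a match in 1 of its 2 windows, and the windows of Adm, Esm1 and Apln had none.

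Venous genes had negative medians in both libraries (-0.60 in Cre plus, -0.37 in Cre minus), and capillary genes in Cre plus. Of 9 venous genes 3 were over 1.5-fold lower in both libraries (3.32% of all genes were), namely the venous transcription factor Nr2f2 (log2 -1.75 in Cre plus, -1.44 in Cre minus), the ephrin receptor Ephb4 (-1.02 in Cre plus, -0.92 in Cre minus) and Aplnr. Of 14 capillary genes 4 were over 1.5-fold lower in both and 0 higher (Cd36, Sgk1, Meox2 and Ccdc85a), and 6 were lower in both (32.6% of all genes were), with medians of -0.74 in Cre plus, against -0.00 in Cre minus. Capillary genes summed to 8729 CPM in tip-like and 14885 CPM in non-tip cells of Cre plus, but to 8647 CPM in tip-like and 8332 CPM in non-tip cells of Cre minus. With the classes cut anew among barcodes poor in Malat1, the Cre plus capillary median was 0.05. The fatty acid carrier Cd36 had 189 CPM in tip-like and 964 CPM in non-tip cells of Cre plus and 237 CPM in tip-like and 553 CPM in non-tip cells of Cre minus, ratios of -2.35 [-2.55, -2.16] in Cre plus, against -1.22 [-1.44, -1.01] in Cre minus. Fabp4, a fatty acid binding protein, had 4462 CPM in tip-like and 8916 CPM in non-tip cells of Cre plus, but 3729 CPM in tip-like and 3694 CPM in non-tip cells of Cre minus.

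The other named lower genes included Prcp, a lysosomal peptidase (-2.44 in Cre plus, -2.46 in Cre minus), Slco2a1, a prostaglandin transporter (-1.61 in Cre plus, -2.05 in Cre minus), Ebf1, a transcription factor (-1.80 in Cre plus, -1.32 in Cre minus), and Dnm3, a dynamin (-3.01 in Cre plus, -1.66 in Cre minus). Stox2 had ratios of -2.84 in Cre plus, against -1.97 in Cre minus, Ccdc85a of -3.38 in Cre plus, against -2.15 in Cre minus, Cped1 of -1.69 in Cre plus, against -1.70 in Cre minus, and Etl4 of -1.58 in Cre plus, against -1.19 in Cre minus. The flow-induced transcription factors Klf2 and Klf4 were lower too: Klf2 had 63.1 CPM in tip-like and 254 CPM in non-tip cells of Cre plus and 37.4 CPM in tip-like and 77.1 CPM in non-tip cells of Cre minus, and Klf4 had 18.6 CPM in tip-like and 117 CPM in non-tip cells of Cre plus and 9.58 CPM in tip-like and 47.3 CPM in non-tip cells of Cre minus. The TGF-beta co-receptor Tgfbr3 had ratios of -3.20 in Cre plus, against -3.50 in Cre minus and the junction protein Jam2 of -3.71 in Cre plus, against -2.08 in Cre minus. These 2 genes had only 10 to 21 UMIs in the tip-like sums.

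**Figure D3:**
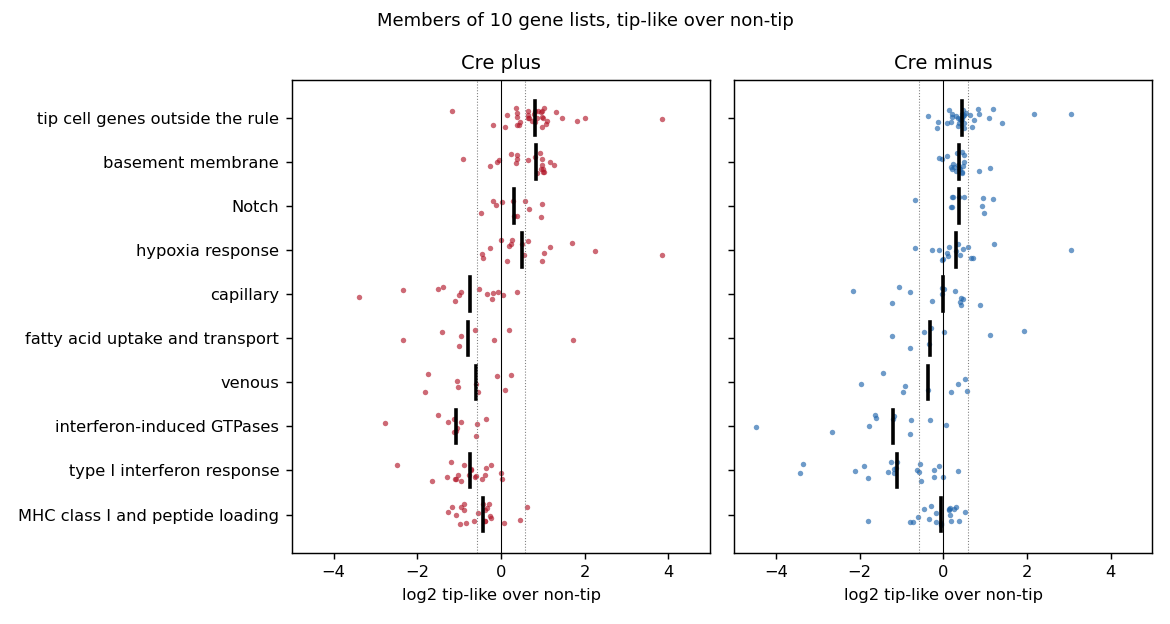
Log2 ratio of tip-like over non-tip cells for the measured members of 10 gene lists, in Cre plus (left) and Cre minus (right); a point is a gene, a black bar the list median, and dotted lines mark 1.5-fold. Tip cell and basement membrane genes lie mostly right of 0 (tip cell medians 0.81 in Cre plus, 0.46 in Cre minus; basement membrane medians 0.84 in Cre plus, 0.37 in Cre minus). Interferon-induced GTPases lie left of it (-1.07 in Cre plus, -1.21 in Cre minus).

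To see whether these genes followed the share or stepped at the cut, the 340 barcodes were divided into 4 bins of equal size by the share, with bounds at 0.0683%, 0.220% and 0.400%, the upper 2 bins being the tip-like cells. From the lowest to the highest bin they held 50, 33, 31 and 41 Cre plus barcodes and 35, 52, 54 and 44 Cre minus barcodes. Igfbp3 increased with each bin, at 888, 2202, 2889 and 3992 CPM in Cre plus, and at 1101, 2794, 4865 and 6682 CPM in Cre minus. Dll4 stood at 119, 225, 296 and 343 CPM in Cre plus, and at 100.4, 236, 407 and 451 CPM in Cre minus. Neither gene was used to order the barcodes, and both differed between neighbouring bins on either side of the cut as well as across it.

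Cxcr4 stayed low in the lower bins and was highest in the top one, at 37.0, 50.2, 82.2 and 197 CPM in Cre plus, and at 32.5, 59.9, 172 and 276 CPM in Cre minus. Basement membrane genes summed to 17174, 18689, 23122 and 29152 CPM in Cre plus and to 17312, 24643, 28755 and 34882 CPM in Cre minus. Cd36 was concentrated in the lowest bin, at 1420, 322, 96.2 and 254 CPM in Cre plus, and at 883, 377, 180 and 288 CPM in Cre minus. Median depth moved with the share as well, at 11947, 10033, 12979 and 16394 UMIs per barcode in Cre plus and 8576, 10617.5, 10760.5 and 13347 in Cre minus. Its part in these levels was not tested.

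**Figure D4:**
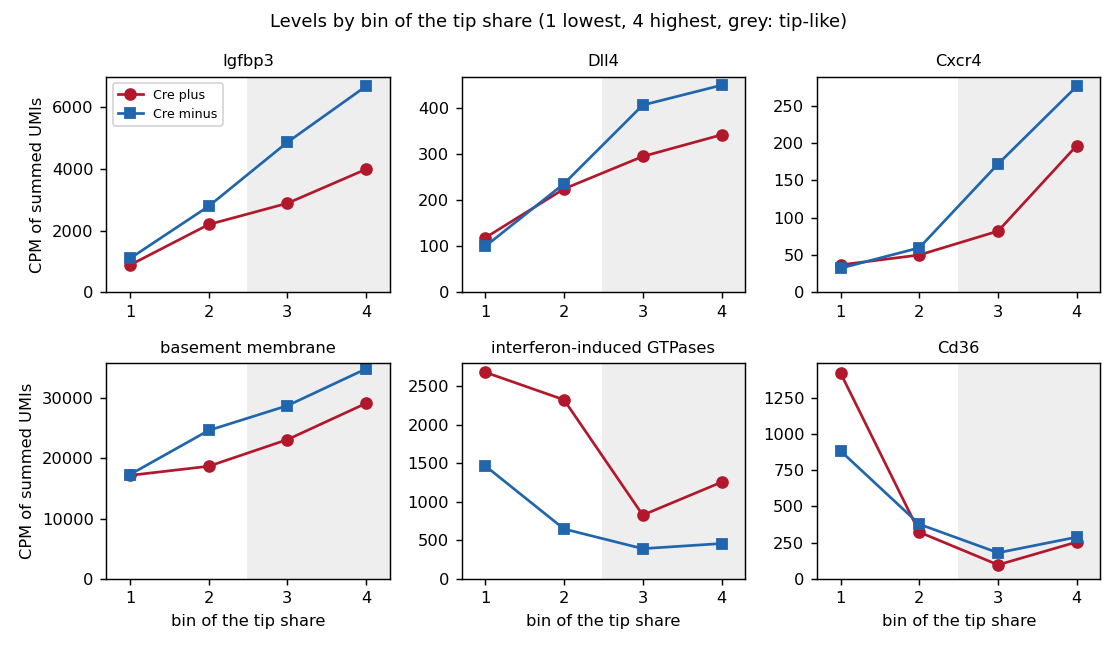
Summed level (CPM, linear axes from 0) of 4 genes and 2 gene lists in the 4 bins of the tip share, in Cre plus (red circles) and Cre minus (blue squares); grey marks the 2 tip-like bins. Igfbp3, Dll4, Cxcr4 and basement membrane genes are highest in the top bin of both libraries, and Cd36 and the interferon-induced GTPases are highest in the lowest.

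The genotype concerns the interferon-gamma receptor, so interferon-induced genes were described in detail. Interferon-gamma bound to Ifngr1 and Ifngr2 activates the kinases Jak1 and Jak2, and the response includes Irf1, guanylate-binding proteins (Gbp genes), immunity-related GTPases (IRG genes such as Iigp1, Irgm1 and Igtp), major histocompatibility complex (MHC) class I and its peptide loading machinery. Promoters of such genes are known for GAS elements, searched here as TTCNNNGAA, and for ISRE elements, which interferon regulatory factors bind, searched as GAAANNGAAA or its reverse TTTCNNTTTC. In RefSeq promoter windows (GRCm38.p6, 250 bases before to 50 after the start), an ISRE match was found in 5 of the 6 GTPase genes with a window (83.3%), in 7 of 16 type I interferon response genes (43.8%), and in 3.82% of genes measured in tip-like cells (201 of 5255). A GAS match was found in 2 of the 6 GTPase genes and in 7.61% of measured genes. A match describes letters and is neither a binding site shown in these cells nor a cause.

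Promoters of 4 interferon-induced genes measured in tip-like cells are shown because their levels carry the comparison that follows, each 5′ to 3′ on the strand of its gene with GAS and ISRE matches in capitals. Gbp2 lies at chr3:142620413-142620712 on the plus strand and holds 1 ISRE match. Igtp at chr11:58199306-58199605 on the plus strand holds 1 GAS and 1 ISRE match that do not overlap. Irgm1 at chr11:48871371-48871670 on the minus strand holds 2 overlapping ISRE matches, and Isg15 at chr4:156200769-156201068 on the minus strand holds 3 that overlap in a single run.
Gbp2: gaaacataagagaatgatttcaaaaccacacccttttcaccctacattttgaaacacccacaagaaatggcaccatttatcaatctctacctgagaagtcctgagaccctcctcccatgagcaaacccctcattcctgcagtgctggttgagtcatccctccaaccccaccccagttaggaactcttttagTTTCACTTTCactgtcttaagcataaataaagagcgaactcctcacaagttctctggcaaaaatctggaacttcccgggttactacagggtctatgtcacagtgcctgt
Igtp: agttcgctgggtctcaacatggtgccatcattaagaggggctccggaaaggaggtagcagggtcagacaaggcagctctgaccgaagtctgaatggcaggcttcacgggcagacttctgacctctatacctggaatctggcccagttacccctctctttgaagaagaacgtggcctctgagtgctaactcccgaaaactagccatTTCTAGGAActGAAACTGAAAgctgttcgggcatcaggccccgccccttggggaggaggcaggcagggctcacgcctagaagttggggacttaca
Irgm1: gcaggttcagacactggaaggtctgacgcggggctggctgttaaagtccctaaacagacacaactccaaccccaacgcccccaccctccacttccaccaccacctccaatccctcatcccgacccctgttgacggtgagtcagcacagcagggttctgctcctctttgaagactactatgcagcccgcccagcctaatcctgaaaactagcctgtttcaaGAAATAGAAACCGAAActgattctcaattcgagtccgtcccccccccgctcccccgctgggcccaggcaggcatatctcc
Isg15: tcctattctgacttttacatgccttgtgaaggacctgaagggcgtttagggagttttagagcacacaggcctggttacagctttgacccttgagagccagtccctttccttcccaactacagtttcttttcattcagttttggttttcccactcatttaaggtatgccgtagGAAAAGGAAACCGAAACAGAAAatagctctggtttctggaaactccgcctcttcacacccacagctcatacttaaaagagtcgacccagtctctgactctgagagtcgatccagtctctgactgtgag

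Within each library interferon-induced genes were lower in tip-like than in non-tip cells when UMIs were summed. Of 11 GTPase genes 7 were over 1.5-fold lower in both libraries (3.32% of all genes were), with medians of -1.07 in Cre plus, against -1.21 in Cre minus. Gbp2 had 114 CPM in tip-like and 248 CPM in non-tip cells of Cre plus, and 20.03 CPM in tip-like and 68.8 CPM in non-tip cells of Cre minus. Iigp1 had 307 CPM in tip-like and 867 CPM in non-tip cells of Cre plus and 73.2 CPM in tip-like and 225 CPM in non-tip cells of Cre minus, log2 ratios of -1.50 in Cre plus, against -1.62 in Cre minus. Of 20 type I interferon response genes 17 were lower in both libraries (32.6% of all genes were) and 11 over 1.5-fold (3.32% of all genes were). The medians of this list were -0.75 in Cre plus, against -1.11 in Cre minus. The antiviral gene Rsad2 was the extreme, at 45.9 CPM in tip-like and 144 CPM in non-tip cells of Cre plus and 18.3 CPM in tip-like and 187 CPM in non-tip cells of Cre minus. MHC class I genes were less different, with medians of -0.43 in Cre plus, against -0.05 in Cre minus over 21 members.

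The sums rest on few barcodes, above all in Cre minus. The 5 richest barcodes held 90.1% of the Rsad2 UMIs and 81.7% of the Iigp1 UMIs of Cre minus non-tip cells. Taken per barcode, the median GTPase level was 4.10 UMIs per 10000 in tip-like and 9.33 in non-tip barcodes of Cre plus, but 2.56 in tip-like and 2.01 in non-tip barcodes of Cre minus. The type I interferon list had medians of 20.1 UMIs per 10000 in tip-like and 27.2 in non-tip barcodes of Cre plus, but 14.9 in tip-like and 11.2 in non-tip barcodes of Cre minus. So in Cre minus the median tip-like barcode was not below the median non-tip barcode, although the summed level was.

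Between the genotypes, the targeted gene was measured first. Ifngr1 (ENSMUSG00000020009, chr10:19591949-19610229, plus strand) had 274 UMIs in 50 of 72 Cre plus and 231 UMIs in 53 of 98 Cre minus tip-like barcodes. Its level was 197 CPM in Cre plus, against 201 CPM in Cre minus, a log2 ratio of -0.03 [-0.29, 0.23]. With the tip-like class cut anew among barcodes with under 0.1% Malat1 UMIs it stood at -1.21 [-4.40, 0.94], and cut anew among the others at -0.16. In non-tip cells it was 211 CPM in Cre plus, against 113 CPM in Cre minus (0.90 [0.58, 1.23]). Melanoma-panel barcodes had 10.7 CPM in Cre plus, against 11.9 CPM in Cre minus, far below the tip-like levels. A 3′ tag can lie outside a deleted exon, so this level does not check the genotype. Ifngr2 was higher in Cre plus by 0.46 [0.18, 0.74] and Irf1 by 1.20 [0.71, 1.71]. Jak2 stood lower, at -0.87 [-1.29, -0.45].

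Of 6562 genes with at least 50 UMIs summed over both tip-like sums, 594 (9.05%) were over 1.5-fold higher in Cre plus than in Cre minus tip-like cells and 446 (6.8%) over 1.5-fold lower. Interferon-induced GTPase genes were higher in Cre plus for all 10 measured members and over 1.5-fold for 9, with a median of 1.35 against 0.04 for all genes. Gbp2 had 159 UMIs (114 CPM) in 26 Cre plus barcodes and 23 UMIs (20.03 CPM) in 15 Cre minus barcodes, a ratio of 2.51 [1.87, 3.21]. Iigp1 had 428 UMIs (307 CPM) in Cre plus, against 84 UMIs (73.2 CPM) in Cre minus, a ratio of 2.07 [1.73, 2.42]. Igtp had 55 UMIs in Cre plus, against 8 in Cre minus (2.501 [1.42, 3.78]), and Irgm1 139 in Cre plus, against 50 in Cre minus (1.19 [0.72, 1.69]). Gbp9 was the measured member nearest to 0, at 0.41 [-0.27, 1.11]. Gbp8 fell just short of the minimum and went the other way, with 20 UMIs in Cre plus, against 28 in Cre minus (-0.77 [-1.67, 0.11]). Gbp and H2 genes have close relatives between which reads can be split, so values of single members are less certain than their sum.

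Here too few barcodes carried much of the signal. In Cre plus tip-like cells the 5 richest barcodes held 76.1% of the Gbp2 and 56.1% of the Iigp1 UMIs, and in Cre minus tip-like cells 52.2% of the Gbp2 and 63.1% of the Iigp1 UMIs. Per barcode, the median GTPase level was 4.10 UMIs per 10000 in Cre plus, against 2.56 in Cre minus tip-like barcodes, and 11 of 72 Cre plus and 26 of 98 Cre minus barcodes had none. Thinned to 2000 UMIs, 24.6% of Cre plus and 8.34% of Cre minus tip-like barcodes had an Iigp1 UMI. Unthinned, the Cre plus shares were 47.2% of tip-like and 11.6% of melanoma-panel barcodes, and the Cre minus shares 24.5% of tip-like and 9.63% of melanoma-panel barcodes. The higher GTPase level in Cre plus was seen in non-tip cells as well, in 16 of 16 members over 1.5-fold with a median of 1.11, where 13.6% of all genes were. In lymphatic-panel barcodes the order of the summed levels was the reverse for Gbp2, at 34.6 CPM in Cre plus, against 182 CPM in Cre minus. Iigp1 was there at 72.4 CPM in Cre plus, against 146 CPM in Cre minus. The share of barcodes with Gbp2 was 26.9% in Cre plus, against 30.6% in Cre minus, and with Iigp1 29.1%, against 23.9%. These classes were unlike, with 770 Cre plus and 209 Cre minus barcodes and median depths of 15132 and 5773 UMIs. Barcodes with at least 0.1% Malat1 UMIs were 56.1% and 18.2% of them. The part of these differences was not tested.

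**Figure D5:**
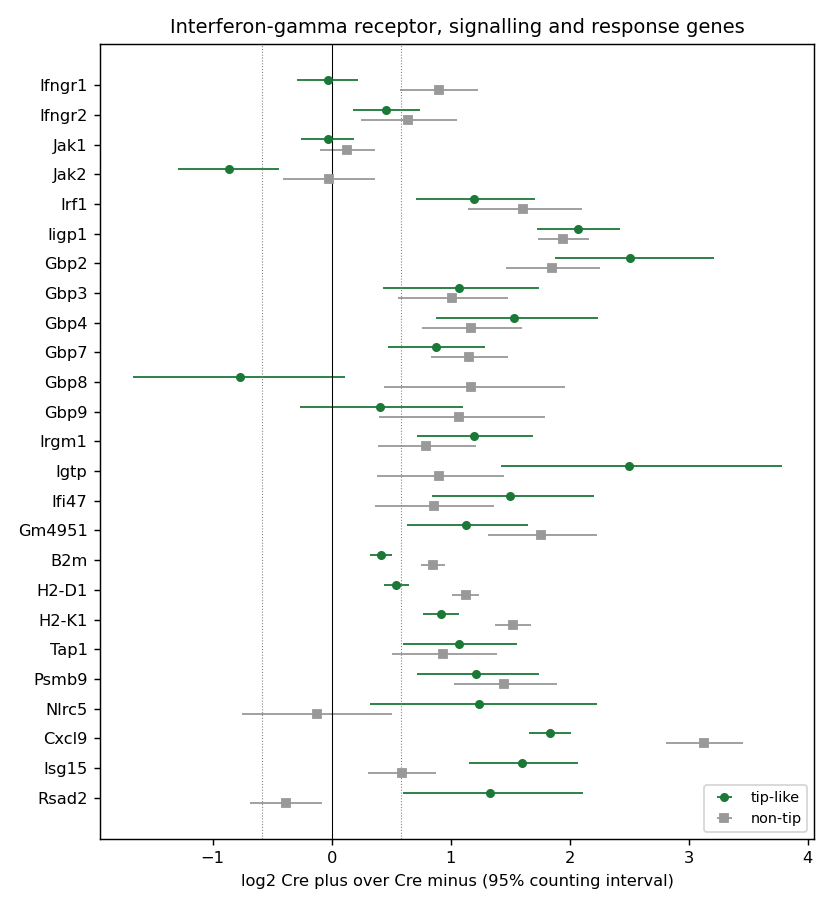
Log2 ratio of Cre plus over Cre minus for genes of the interferon-gamma pathway in tip-like (green circles) and non-tip (grey squares) cells; bars are 95% intervals of counting error, and dotted lines mark 1.5-fold. Tip-like Ifngr1 sits at -0.03, Gbp2 at 2.51 and Iigp1 at 2.07, and Gbp8, with fewer than 50 UMIs, at -0.77.

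MHC class I and peptide loading genes were over 1.5-fold higher in Cre plus for 13 of 22 members (9.05% of all genes were) and lower for 0, with a median of 0.66. With the tip-like class cut anew among barcodes with under 0.1% Malat1 UMIs, which were fewer in Cre plus, the median was 0.12. Cut anew among the others it was 0.58. H2-K1 (a class I heavy chain) had 840 CPM in Cre plus, against 444 CPM in Cre minus (0.92 [0.77, 1.07]), and its partner B2m 1809 CPM in Cre plus, against 1353 CPM in Cre minus (0.42 [0.33, 0.51]). The peptide transporter Tap1 was higher by 1.07, the immunoproteasome subunits Psmb9 and Psmb10 by 1.22 and 1.30, and the class I transactivator Nlrc5 by 1.23. The chaperones Calr and Pdia3, which serve all glycoproteins, stood at 0.02 and -0.06. The class II chaperone Cd74 had 130 UMIs in Cre plus, against 3 in Cre minus, but 5 barcodes held 90.0% of those in Cre plus. In non-tip cells 17 of 22 MHC class I and peptide loading genes were over 1.5-fold higher (13.6% of all genes were), with a median of 0.90.

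Type I interferon response genes were over 1.5-fold higher for 9 of 19 (9.05% of all genes were) and lower for 0 (6.8% of all genes were), with a median of 0.52. Isg15, a ubiquitin-like modifier, had 140 CPM in Cre plus, against 46.2 CPM in Cre minus (1.60 [1.15, 2.07]), and the transcription factor Irf7 49.5 CPM in Cre plus, against 12.2 CPM in Cre minus (2.02 [1.18, 2.97]). Isg15 was found in 59.7% of Cre plus and 28.6% of Cre minus tip-like barcodes, but also in 54.6% of Cre plus and 52.2% of Cre minus melanoma-panel barcodes (85.5 CPM in Cre plus, 101 CPM in Cre minus). The part of free RNA in the tip-like shares was not tested. The chemokine Cxcl9, which attracts T cells, had 1448 UMIs in 35 Cre plus and 335 UMIs in 33 Cre minus tip-like barcodes (1.83 [1.66, 2.01]), with 67.3% of the Cre plus and 81.2% of the Cre minus UMIs in 5 barcodes. The membrane protein Ifitm3 was more evenly spread, at 1175 CPM in Cre plus, against 587 CPM in Cre minus (1.00 [0.87, 1.13]). In non-tip cells 11 of 26 type I interferon response genes were over 1.5-fold higher (13.6% of all genes were), with a median of 0.54.

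Genes of other stimuli were also higher in Cre plus. Immediate-early and stress genes were over 1.5-fold higher for 13 of 19 members (9.05% of all genes were), with a median of 0.85. They included Junb at 158 CPM in Cre plus, against 47.0 CPM in Cre minus (1.75), and Jund (1.18). The GTPase gene Rhob, a named higher gene outside this list, stood at 1.34. The heat-shock genes Hspa1a and Hspa1b had 59 and 54 UMIs in Cre plus, against 0 in Cre minus, at least 16.2-fold and 14.8-fold higher when 3 counts are set as the floor for Cre minus. Of 10 NF-kB targets 6 were over 1.5-fold higher, against the same 9.05% of all genes, with a median of 0.79, led by Nfkbia, the feedback inhibitor, at 206 CPM in Cre plus, against 81.0 CPM in Cre minus (1.35 [1.00, 1.70]). In non-tip cells 17 of 20 immediate-early and stress genes and 6 of 10 NF-kB targets were over 1.5-fold higher in Cre plus. Their medians there were 1.64 and 0.84, and 13.6% of all genes were past that fold. Immediate-early, stress and NF-kB genes are known to respond to tissue dissociation as well as to cytokines, and which acted here was not tested.

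The remaining named higher genes were Serpinb1a, a protease inhibitor (2.82 [2.42, 3.24]), Tanc2 (2.37), Ndrg1, a hypoxia- and stress-induced gene (1.55), and Gbp4 (1.54), whose gene overlaps that of Gbp9 on the same strand. In Cre plus the 5 richest barcodes held 84.0% of the Serpinb1a and 77.7% of the Tanc2 UMIs.

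Genes that were lower in Cre plus tip-like cells included guidance, signalling and matrix genes. Ephb1, an ephrin receptor, had 45.2 CPM in Cre plus, against 167 CPM in Cre minus (-1.89 [-2.32, -1.47]). Prex2, an activator of the GTPase Rac, had 716 UMIs in Cre plus, against 1308 in Cre minus (-1.15 [-1.28, -1.02]) and Cmss1 1643 in Cre plus, against 2723 in Cre minus (-1.01 [-1.10, -0.92]), both spread over many barcodes. The annotated Cmss1 gene overlaps Filip1l on the opposite strand, whose ratio was -0.42, so the Cmss1 value is uncertain too. Cmss1 was not lower in tip-like cells alone: its ratio was -1.53 in non-tip cells. It had 823 CPM in Cre plus, against 1373 in Cre minus lymphatic-panel barcodes, 256 against 313 in melanoma-panel and 514 against 1411 in stroma-panel ones. It was higher in Cre plus macrophage-panel (700 against 614) and cycling blood endothelial barcodes (788 against 692). Lama3, a laminin chain, was at -1.86, Ltbp4, which anchors latent TGF-beta, at -1.64, and Pik3r3, a regulatory subunit of phosphoinositide 3-kinase, at -1.15. The Wnt inhibitor gene Dkk2 was at -1.79, with 92.6% of its Cre plus UMIs in 5 barcodes. Slc35f1 (-1.29), Zfp69 (-1.51), Pcbp3 (-1.51) and Mllt3 (-1.17) were also among the named lower genes. Guidance genes as a list had a median of -0.39, with 4 of 15 over 1.5-fold lower (6.8% of all genes were) and 1 higher (9.05% of all genes were). Vegfc, the growth factor that the tumour line was made to carry, stood at -1.42 in tip-like cells. Melanoma RNA was lower in the same sums, with 58 UMIs of the 4 melanoma panel genes (41.6 CPM) in Cre plus, against 121 UMIs (105 CPM) in Cre minus, and its part in the Vegfc value was not tested.

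Tip cell genes differed between the libraries in both directions. Of the rule genes, Esm1 stood at -0.06 [-0.13, 0.01], Apln at 0.04 [-0.11, 0.19], Angpt2 at 0.37 [0.25, 0.49] and Kcne3 at 0.42 [0.30, 0.54] in Cre plus over Cre minus tip-like cells, all under 1.5-fold, and the cut on their sum limits how far they could differ. The 34 tip cell genes outside the rule had a median of -0.14, with 6 over 1.5-fold higher (9.05% of all genes were) and 3 over 1.5-fold lower (6.8% of all genes were). Of the 34, 13 were higher in Cre plus (54.6% of all genes were) and 21 lower (45.4% of all genes were). The 34 genes summed to 35839 CPM in Cre plus, against 44024 CPM in Cre minus. Igfbp3 was lower in Cre plus (-0.72 [-0.77, -0.67]), as were Cxcr4 (-0.60 [-0.87, -0.33]) and Dll4 (-0.41 [-0.60, -0.22]), and Flt1 (-0.60 [-0.67, -0.53]). Of the members higher in Cre plus, Pgf had the largest ratio, 1.41, and Pdgfb stood at 0.33 [0.17, 0.50]. Basement membrane genes had a median of -0.21, with Lama4 at -0.51 and Fn1 at 0.87. The differences in depth, mitochondrial share and Malat1 given above run alongside every comparison between these libraries, and their part in them was not tested.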

How the data were processed

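Sorted cells of 1 pool of 3 tumours per genotype were profiled with a 10x 3′ kit, per the labels' protocols, and aligned to mm10 with Cell Ranger 7.0.0, per the submitters' processing notes. The deposited files hold UMI counts per gene and barcode, as whole numbers. Rows that share a gene symbol were summed (32285 rows to 32245 symbols). Gene positions are from GENCODE M21 on mm10, which matched 99.6% of the gene identifiers, and promoters from RefSeq GRCm38.p6. Barcodes with under 500 genes or at least 10% mitochondrial UMIs were left out, and cell classes were rebuilt from marker panels, so they may differ from the study's own. Free RNA can add UMIs of any gene to a barcode.

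UMIs were summed per class and library. Ratios are of CPM on the log2 scale, with no pseudocount, for genes with at least 50 summed UMIs, and their 95% intervals are exact binomial intervals of the 2 sums that cover counting error only. With 1 library per genotype no test, SE or p-value was made. A gene counts as higher or lower past 1.5-fold. Named genes were Ifngr1, the panel genes and the 12 each way whose interval bound lay farthest from 0, with at least 100 UMIs (per library, and for tip-like over non-tip in the same direction in both) and, between genotypes, a UMI in at least 5% of barcodes. Mitochondrial, ribosomal protein, haemoglobin, Y-linked and unnamed genes, Xist and Tsix were left out of this ranking, as were genes under 10% of their level in another cell class. Other list members in the text were chosen after their values were seen. Lists share members, such as Dll4 (tip cell, Notch and arterial), Adm (tip cell and hypoxia) and Slc2a1 (hypoxia and glycolysis), so their counts are not independent. Shares of barcodes were repeated after thinning to 2000 UMIs, which kept 67 Cre plus and 96 Cre minus tip-like barcodes. The steps were tested on simulated counts. Scrublet, run in scanpy 1.11.5, called 0.168% of Cre plus and 0.193% of Cre minus barcodes as doublets, 0 of them tip-like, and was read as not having worked. The members and gene lists were chosen with earlier results of these data known. Of the listed genes, Tp53i11, Darc, Ero1a and Ifgga1 were not analysed here. Some genes that these rules name are not reported here.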

Additional observations from a re-analysis of the deposited data

Results flagged for a closer look

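Of 715 listed genes, 8 lay over 1.5-fold on opposite sides between Cre plus and Cre minus in tip-like and in non-tip cells with neither interval reaching 0, and 7 of them had a UMI in all 4 sums. Values are tip-like minus non-tip differences of the log2 ratio of Cre plus over Cre minus. Each was picked for this pattern, and whether the 2 classes differ was not tested, since there is 1 library per genotype.

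The arterial gap junction gene Gja4 had a difference of -3.37, from -0.95 in tip-like and 2.42 in non-tip cells, and its UMIs were 51 in Cre plus tip-like, 221 in Cre plus non-tip, 81 in Cre minus tip-like and 31 in Cre minus non-tip cells. Of these UMIs, 5 barcodes held 94.1% in Cre plus tip-like, 67.9% in Cre plus non-tip, 70.4% in Cre minus tip-like and 64.5% in Cre minus non-tip cells. Ltbp4 had a difference of -2.25 (-1.64 in tip-like and 0.61 in non-tip cells). Slc35f1 had -2.46 (-1.29 and 1.17), with 87.1% of its Cre plus and 80.7% of its Cre minus tip-like UMIs in 5 barcodes. Stmn2, an arterial list gene, had -4.88 and Cpe, a carboxypeptidase gene, -4.60, but rested on 1 and 3 UMIs in Cre plus tip-like cells. In the other direction stood Smad3, a TGF-beta mediator, at 1.67 (0.94 and -0.73), and Nt5e, the ectoenzyme CD73, at 1.84 (0.72 and -1.12).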

How the results depend on the processing

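No paired analysis was possible because each genotype has 1 library. Of 348 recomputed values, 315 stayed within their interval or within 1.5 times of the count, 30 moved and 3 reversed, and the cause was not tested. Over the alternatives the GTPase median of Cre plus over Cre minus tip-like cells ran between 1.04 and 1.47. The tip-like share ran between 34.2% and 49.7% in Cre plus and between 32.4% and 55.2% in Cre minus. The cut sets the pooled share by construction, so these ranges do not measure stability. The 49.7% of Cre plus came from a separate median per library, which fixes that share. With only barcodes under 0.1% Malat1 UMIs, the basement membrane median of tip-like over non-tip was -0.16 in Cre plus and -0.35 in Cre minus, the Cre plus capillary median 0.049, the tip gene medians 0.33 and 0.090, Ifngr1 -1.21, the MHC class I median 0.12, and the counts over 1.5-fold 22 higher and 6 lower (tip-like over non-tip) and 87 higher and 75 lower (Cre plus over Cre minus). No GTPase median could be had there. Alternatives that changed which barcodes were kept took the cut anew, at the joint median of those barcodes, and applied the UMI minimum again. With only barcodes of at least 0.1% Malat1, the genotype counts were 1084 and 939. With a higher cut of the share as members, these were 34.2% of Cre plus and 32.4% of Cre minus barcodes, and the Cre plus tip gene median was 0.62. Cre plus thus stood above Cre minus at that cut, the reverse of the order at the main cut. The mean of per-barcode CPM gave 350 genes lower in tip-like cells. With no UMI minimum the counts were 777 higher and 1483 lower between classes and 3653 and 2871 between genotypes, and with a minimum of 200 UMIs 72 and 43, and 129 and 127. Some alternatives, among them the one without Ccl21a in the lymphatic panel (44.6% Cre plus and 54.5% Cre minus), were chosen after seeing the data. Depth limits genes near 50 UMIs, whose intervals span over 1.5-fold, and intervals leave out differences between animals.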
